A study of Mus musculus with 4 samples.

Results

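Respiratory complex I genes were taken as every gene whose symbol begins with Nduf, which gave 45 of the 24391 genes counted. They comprised 7 core subunits, 29 accessory subunits, 7 assembly factors whose symbols begin with Ndufaf, and Ndufa4 with its relative Ndufa4l2. The counts came from mouse lung tumours depleted of cells carrying CD45, the surface antigen of leukocytes. Of 4 samples, 2 came from K-Ras LSL-G12D mice, whose mutant K-Ras allele stays silent until a stop cassette is recombined out. The other 2, named K-Ras Mll4-/-, came from mice that carried the same K-Ras allele together with Mll4 fl/fl, floxed alleles of the histone methyltransferase gene now called Kmt2d. They are called Mll4-deleted here. The agent that delivered Cre, the age of the mice, and whether each sample was 1 mouse or a pool are not given in the sources used here. The p-values therefore measure the spread between these samples, which may be technical.

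Complex I is the largest enzyme of the mitochondrial respiratory chain. It oxidises NADH, passes the electrons through flavin and iron-sulphur centres to ubiquinone, and pumps protons across the inner membrane. The core subunits carry out this chemistry, and the nuclear genome encodes those of the peripheral arm. Mitochondrial DNA encodes the core subunits of the membrane arm. Their symbols were not among the genes counted, so they were not analysed here. The accessory subunit Ndufb1 was also absent by symbol. Accessory subunits surround the core and are needed for its assembly and stability. Assembly factors help to build the complex and are absent from the finished enzyme. Ndufa4 was named as a complex I subunit and is now placed with cytochrome c oxidase, so it and Ndufa4l2 were kept apart.

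Nduf promoters are shown because the subunit transcripts were higher together in the Mll4-deleted samples, and the transcription factor NRF1 is a known activator of nuclear genes for the respiratory chain. In the 250 bases before the annotated start, the NRF1 motif (matched in Ndufa5 as GCGCAGGCGC, with the sixth base free) was found in 7 of the 39 Nduf genes with a promoter entry (17.9%), against 4.23% of 27025 genes with an entry. Both strands were searched, and a palindromic match was counted once. The 27025 genes exceed the 24391 counted and were not limited to genes expressed in these samples. An ETS-family motif, CCGGAAG, was found in 4 of the 39 (10.3%, against 7.83% of all). The estrogen-related receptor motif (matched in Ndufb4 as TGAAGGTCA, with the second base free) was found in 1 (2.56%, against 1.3%), and the YY1 motif in 0 (against 0.411%). No match overlapped a match to another motif. Among 31 subunit genes of respiratory complexes II to V with an entry, the NRF1 motif was found in 7 (22.6%). The ETS-family motif was found in 9 of them (29%), so neither motif was particular to complex I. The sequences below come from RefSeq (GRCm38.p6), run 5′ to 3′ on the strand of the gene, and end at the base before the start, with motif matches in capitals. Ndufa5 had the largest fold change of any subunit and has 2 promoter entries, each with an NRF1 match, of which the one with the match nearer to the start is shown. The others were chosen because Ndufb4 had the most matches of any Nduf gene, Ndufs6 the match nearest to the start, and Ndufaf4 was the only Ndufaf gene with an NRF1 match.

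Ndufa5, chr6:24527691-24527940, minus strand: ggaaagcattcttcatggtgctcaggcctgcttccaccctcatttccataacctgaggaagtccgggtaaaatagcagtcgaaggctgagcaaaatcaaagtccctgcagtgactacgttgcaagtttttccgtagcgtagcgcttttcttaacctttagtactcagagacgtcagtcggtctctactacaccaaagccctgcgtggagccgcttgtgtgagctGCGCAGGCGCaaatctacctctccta

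Ndufb4, chr16:37654369-37654618, minus strand: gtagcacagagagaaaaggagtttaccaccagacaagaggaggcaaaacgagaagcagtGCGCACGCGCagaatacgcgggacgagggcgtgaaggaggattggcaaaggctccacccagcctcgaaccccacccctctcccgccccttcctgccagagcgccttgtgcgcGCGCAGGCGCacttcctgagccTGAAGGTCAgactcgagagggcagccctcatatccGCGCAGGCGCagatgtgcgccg

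Ndufs6, chr13:73328483-73328732, minus strand: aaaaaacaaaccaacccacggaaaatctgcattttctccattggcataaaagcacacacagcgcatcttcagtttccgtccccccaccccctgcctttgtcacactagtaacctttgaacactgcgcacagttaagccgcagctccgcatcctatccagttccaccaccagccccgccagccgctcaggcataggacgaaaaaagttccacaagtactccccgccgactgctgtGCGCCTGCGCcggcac

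Ndufaf4, chr4:24897833-24898082, plus strand: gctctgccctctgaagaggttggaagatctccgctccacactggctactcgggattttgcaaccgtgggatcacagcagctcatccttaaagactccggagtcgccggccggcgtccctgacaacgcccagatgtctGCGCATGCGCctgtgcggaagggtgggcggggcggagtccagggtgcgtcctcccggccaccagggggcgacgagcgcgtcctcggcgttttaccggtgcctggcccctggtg

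The match in Ndufa5 ended 16 bases before the start, that in Ndufs6 6 bases and that in Ndufaf4 103 bases. Ndufb4 held 3 NRF1 matches and 1 estrogen-related receptor match. The 6 subunit genes with an NRF1 match had a median log2 fold change of 0.51 between groups, and the 26 with a promoter entry and no match had one of 0.38. This difference is a description. All 6 genes with a match were accessory subunits, while the 26 without one included core subunits, which had lower fold changes. Among the 6, Ndufs5 had only 12 to 27 reads in a sample. The part of role in this difference was not tested. A match to these letters does not show binding.

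All subunit transcripts were higher on average in Mll4-deleted tumours, the accessory subunits by more than the core subunits. The assembly factors showed little difference, and the median fold change of the core subunits lay close to theirs. Counts were scaled with TMM to CPM, the reads of a gene relative to the adjusted total of its library, and genes were tested with edgeR's quasi-likelihood test with Benjamini-Hochberg adjustment over 16001 genes. The 29 accessory subunits had a median log2 fold change (Mll4-deleted minus K-Ras) of 0.47, the 7 core subunits 0.16 and the 7 Ndufaf genes 0.11, against -0.01 over all genes tested. Of the 36 subunits, 36 had a positive fold change, as did 48.8% of all genes. Both Mll4-deleted samples lay above both K-Ras samples for 29 of the 36 subunits (80.6%), against 29.9% of all genes. The same held for 26 accessory subunits, 3 core subunits and 1 Ndufaf gene. Ndufaf6 was the only Nduf gene with both Mll4-deleted samples below both K-Ras samples, a pattern seen in 28.5% of all genes.

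None of the 45 Nduf genes was called at an adjusted p under 0.05 (edgeR), where 6 of all genes were called (0.0375%). At an unadjusted edgeR p under 0.05, 13 of the 36 subunits were higher (36.1%), against 11.4% of all genes, and 0 were lower, against 10.4%. All 13 were accessory subunits. No core subunit and no Ndufaf gene had such a p in either direction. Of the Nduf genes outside these lists, Ndufa4 had one. DESeq2 called 4 Nduf genes, all higher, namely Ndufa4, Ndufa5, Ndufa6 and Ndufa12 (8.89%), against 5.23% of all genes called higher, and 0 were lower, against 5.18%. The edgeR likelihood ratio test called 3 of these 4, without Ndufa12, against 4.85% of all genes called higher, and limma-voom called 0. The replicate block called 0 Nduf genes, against 1.36% of all genes, and offsets for GC content and length called 0, against 0.0504%. The count of 13 subunits at an unadjusted p under 0.05 depended on the scaling and on single samples. It was 7 with upper-quartile scaling (19.4%, against 9.21% of all genes), 7 with the likelihood ratio test (19.4%, against 10.2%) and 4 with scaling by total counts (11.1%, against 9.19%). Without K-Ras replicate 1 it was 20 (55.6%, against 11.7%), and without Mll4-deleted replicate 1 it was 4 (11.1%, against 6.48%). Without K-Ras replicate 2 it was 4 (11.1%, against 11%), and without Mll4-deleted replicate 2 it was 1 (2.78%, against 3.76%). The share of subunits was thus close to that of all genes without K-Ras replicate 2 and with scaling by total counts. It was below that of all genes without Mll4-deleted replicate 2.

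**Figure D1:**
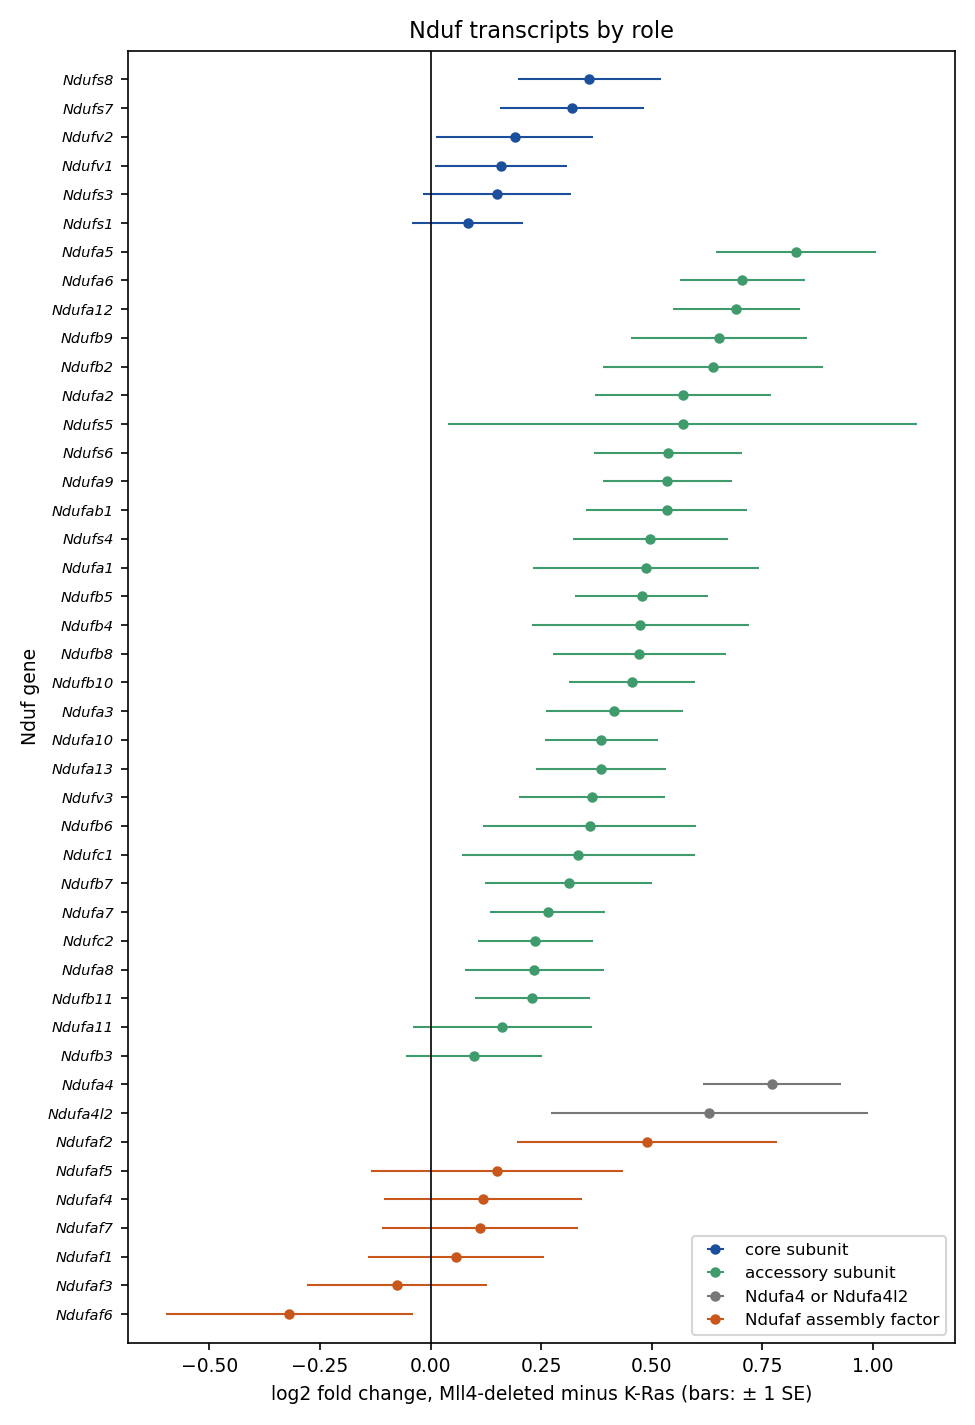
Log2 fold change (horizontal axis, Mll4-deleted minus K-Ras, edgeR) of the Nduf genes reported individually, ordered within role, with bars of 1 SE on each side. Accessory subunits reach from 0.10 to 0.83 and core subunits from 0.08 to 0.36, while Ndufaf genes lie on both sides of 0.

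Ndufs8 and Ndufs7 carry iron-sulphur clusters in the module that hands electrons to ubiquinone. Ndufs8 was at 39.5 and 32.1 CPM in the Mll4-deleted samples and at 28.5 and 27.3 CPM in the K-Ras samples, a log2 difference of 0.36 (SE 0.16, edgeR adjusted p = 0.273). Ndufs7 was at 29.5 and 24.4 CPM against 21.9 and 21.3 CPM, a log2 difference of 0.32 (SE 0.16, edgeR adjusted p = 0.317). Neither gene's groups overlapped, and in both the first Mll4-deleted sample was the highest.

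A further 4 core subunits overlapped between groups. Ndufv1, which binds NADH and the flavin, was at 72.1 and 61.5 CPM in Mll4-deleted tumours and 63.6 and 56.0 CPM in K-Ras tumours. Ndufv2, its iron-sulphur partner, was at 38.9 and 40.7 CPM against 39.7 and 30.1 CPM, so the overlap came from K-Ras replicate 1. Ndufs1, the iron-sulphur subunit that carries electrons onward from them, was at 58.9 and 62.0 CPM against 59.8 and 54.3 CPM. Ndufs3, a scaffold of the ubiquinone module, was at 25.6 and 28.4 CPM against 26.7 and 22.1 CPM. These 4 genes had log2 fold changes from 0.08 to 0.19 with SEs from 0.13 to 0.18. K-Ras replicate 2 was the lowest sample for each of the 4. Without it the sign of Ndufv2 turned to -0.008, and the median of the core subunits was 0.05.

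Among the accessory subunits, 6 were described for the size of their difference. Ndufa5, of the ubiquinone module, was at 21.2 and 24.7 CPM in Mll4-deleted tumours and 14.0 and 12.0 CPM in K-Ras tumours, a 1.77-fold difference (log2 fold change 0.83, SE 0.18, edgeR adjusted p = 0.156). Ndufa6, of the LYR family that holds the mitochondrial acyl carrier protein, was at 61.7 and 53.2 CPM against 36.7 and 33.9 CPM (log2 fold change 0.71, SE 0.14, edgeR adjusted p = 0.153). Ndufa12, of the NADH-oxidising module, was at 30.6 and 33.3 CPM against 18.9 and 20.6 CPM (log2 fold change 0.69, SE 0.14, edgeR adjusted p = 0.154). In these 3 genes the lowest Mll4-deleted sample was well above the highest K-Ras sample, and the difference exceeded that between replicates of either group. The latter held for 7036 of 15945 genes with reads in every sample. The 3 genes were picked for large fold changes, so their separation is no independent support. DESeq2 called all 3, with adjusted p values of 0.0299, 0.0214 and 0.0349.

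Ndufb9, the LYR-family subunit of the distal membrane arm, was at 54.8 and 51.0 CPM against 39.2 and 28.2 CPM. The K-Ras samples differed from each other here by 0.48 on the log2 scale, and the log2 fold change between groups was 0.65 (SE 0.20, edgeR adjusted p = 0.189). Ndufb2, also of the distal membrane arm, was at 8.19 and 9.87 CPM against 6.41 and 5.2 CPM (log2 fold change 0.64, SE 0.25, edgeR adjusted p = 0.238). Ndufa2, a thioredoxin-fold subunit of the NADH-oxidising module, was at 22.8 and 17.7 CPM against 14.3 and 13.0 CPM (log2 fold change 0.57, SE 0.20, edgeR adjusted p = 0.214). The groups of these 3 genes did not overlap, and neither tool called them. The acyl carrier protein itself, Ndufab1, was at 12.9 ± 0.313 CPM in Mll4-deleted and 8.90 ± 0.137 CPM in K-Ras tumours (SD, n = 2 each), so its replicates lay close together. It was named after its values were seen, and its log2 fold change was 0.53 (SE 0.18, edgeR adjusted p = 0.208).

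The accessory subunits with the smallest differences were Ndufb3, Ndufa11, Ndufb11 and Ndufa8. Ndufb3, of the distal membrane arm, was at 22.4 and 21.1 CPM in Mll4-deleted tumours and 21.5 and 19.1 CPM in K-Ras tumours, and its log2 fold change of 0.10 (SE 0.15) turned to -0.10 with offsets for GC content and length. Ndufa11, a membrane subunit, was at 18.7 and 14.7 CPM against 15.9 and 14.0 CPM, with a log2 fold change of 0.16 (SE 0.20). The groups of both genes overlapped. Ndufb11, an X-linked subunit of the membrane arm, and Ndufa8, on the intermembrane side, did not overlap, with log2 fold changes of 0.23 (SE 0.13) and 0.23 (SE 0.16). Ndufs5 had only 12 to 27 reads in a sample, and its log2 fold change of 0.57 had an SE of 0.53 with overlapping groups.

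Grouped by position in the enzyme, the modules had similar medians. The 10 tested subunits of the NADH-oxidising module had a median log2 fold change of 0.43, from 0.08 in Ndufs1 to 0.71 in Ndufa6. The 5 of the ubiquinone module had a median of 0.32, the 10 of the proximal membrane arm 0.39 and the 11 of the distal membrane arm 0.47. Both Mll4-deleted samples lay above both K-Ras samples for 7 of 10, 4 of 5, 8 of 10 and 10 of 11 genes in that order. The pattern held for 29.9% of all genes tested. The spread within each module was wider than the distance between the module medians. In the NADH-oxidising module, the core genes Ndufs1, Ndufv1 and Ndufv2 had the lowest fold changes, and in the ubiquinone module the accessory gene Ndufa5 had the highest.

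The 7 Ndufaf genes had log2 fold changes from -0.32 to 0.49, and none was called (edgeR adjusted p from 0.380 to 0.889). Ndufaf2 was the highest of them. It is a paralogue of the subunit Ndufa12 that holds its place during assembly, and it was at 6.67 and 5.80 CPM in Mll4-deleted tumours and 5.2 and 3.68 CPM in K-Ras tumours (log2 fold change 0.49, SE 0.29). Its groups did not overlap, as those of Ndufa12 did not. Ndufaf6, which acts early in the building of the peripheral arm, was the lowest at 2.74 and 2.95 CPM against 3.53 and 3.57 CPM (log2 fold change -0.32, SE 0.28).

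The other 5 assembly factors overlapped between groups. Ndufaf1, which acts on the membrane arm, was at 8.68 and 9.03 CPM in Mll4-deleted tumours and 8.31 and 8.72 CPM in K-Ras tumours. Ndufaf3 and Ndufaf4 act as partners on the ubiquinone module. Ndufaf3 was at 9.22 and 8.28 CPM against 8.86 and 9.57 CPM, and Ndufaf4 at 11.2 and 9.43 CPM against 10.4 and 8.61 CPM. Ndufaf5 and Ndufaf7 modify arginines of core subunits. Ndufaf5 was at 6.13 and 4.62 CPM against 5.23 and 4.46 CPM. Ndufaf7 was at 12.4 and 17.0 CPM against 13.7 and 13.5 CPM, so the Mll4-deleted samples lay on both sides of the K-Ras samples. Their log2 fold changes lay between -0.08 and 0.15, with SEs from 0.20 to 0.28, and signs changed with single samples left out for Ndufaf4 (-0.03 to 0.27), Ndufaf5 (-0.06 to 0.33) and Ndufaf7 (-0.14 to 0.33).

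**Figure D2:**
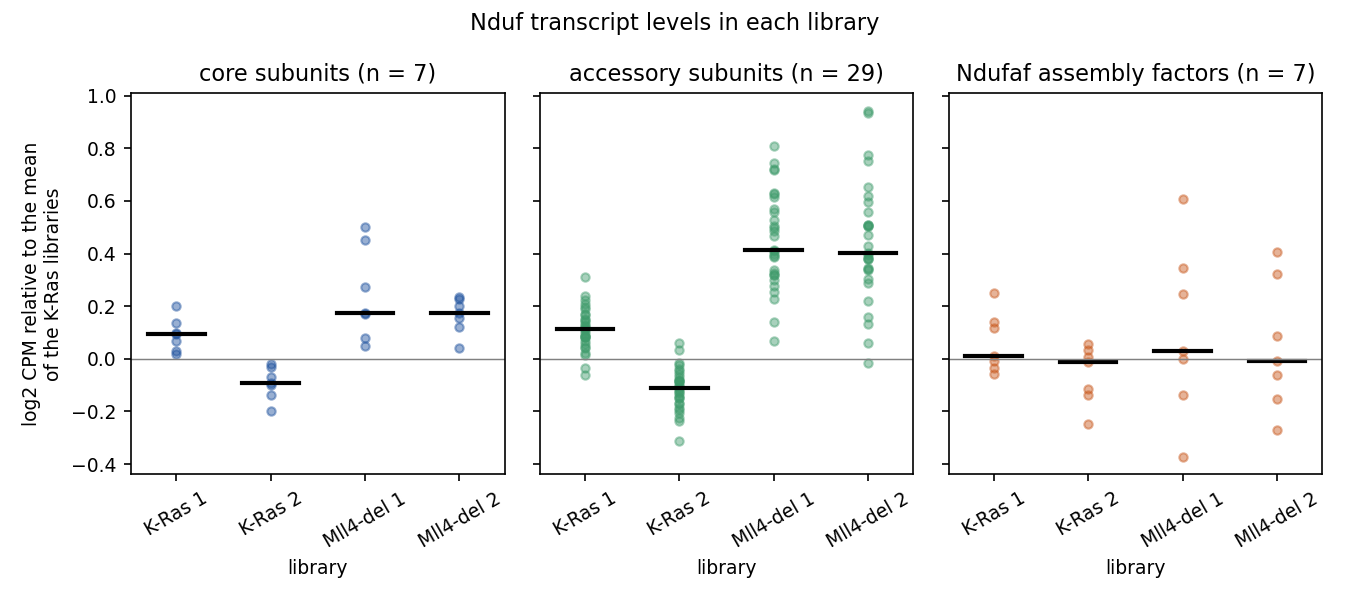
Log2 CPM of each core subunit, accessory subunit and Ndufaf gene in each library, relative to the mean of its K-Ras libraries, with black bars for the medians. Accessory subunits are shifted upwards in both Mll4-deleted libraries, core subunits by less, and the Ndufaf genes spread around 0 in all libraries.

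The contrast of subunits with assembly factors was also read within each library, where a scaling factor cancels. The mean log2 CPM of the subunits exceeded that of the Ndufaf genes by 1.88 and 1.91 in the Mll4-deleted samples and by 1.62 and 1.52 in the K-Ras samples. The mean of the core subunits exceeded that of the accessory subunits by 0.98 and 0.91 against 1.16 and 1.21. Neither difference overlapped between groups. They are given without a test, because the genes were chosen with these results known. The median log2 fold change was 0.47 for accessory subunits, 0.16 for core subunits and 0.11 for Ndufaf genes. The difference between the median fold changes of subunits and Ndufaf genes was 0.27. It lay between 0.26 and 0.41 when single samples were left out, and was 0.35 with GC and length offsets.

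The K-Ras samples were not alike in these genes. K-Ras replicate 2 was the lowest of the 4 samples for 34 of the 36 subunits, and K-Ras replicate 1 for the other 2. The mean log2 CPM of the subunits was 4.77 and 4.75 in the Mll4-deleted samples, 4.47 in K-Ras replicate 1 and 4.25 in K-Ras replicate 2. The Mll4-deleted samples thus differed by less than the K-Ras samples. K-Ras replicate 1 lay between the others, and without K-Ras replicate 2 the median log2 fold change of the subunits was 0.28, with 35 of 36 positive, against 49.5% of all genes. Without K-Ras replicate 1 it was 0.54.

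Markers of some other cell types differed between the same samples. For the counts below, 28.5% of all genes tested were lower and 29.9% higher in both Mll4-deleted samples. The 8 ciliated-cell markers, among them Foxj1, Dnah5 and Tppp3, summed to 81.9 and 87.0 CPM in the Mll4-deleted samples, 145 CPM in K-Ras replicate 1 and 816 CPM in K-Ras replicate 2, and 8 of 8 were lower in both Mll4-deleted samples. The 5 club-cell markers summed to 829 and 657 CPM against 767 and 3755 CPM, with 2 of 5 lower in both. The 6 endothelial markers summed to 2902 and 2269 CPM against 3848 and 4045 CPM, with 4 of 6 lower in both, and the 7 fibroblast markers to 916 and 920 CPM against 2612 and 1192 CPM, with 5 of 7 lower in both. K-Ras replicate 2 therefore had the highest ciliated and club sums together with the lowest subunit levels. The 6 mesothelial markers summed to 494 and 833 CPM against 100.2 and 209 CPM. That sum rested on Krt19 and Msln, while Wt1 and Upk3b were at or under 0.64 CPM in every sample. Of the 4 tested, 2 were higher in both Mll4-deleted samples and 1 lower. Sums of the alveolar type 2, alveolar type 1 and immune markers overlapped between groups, with 1 of 7, 2 of 6 and 0 of 9 higher and 2 of 7, 1 of 6 and 1 of 9 lower in both Mll4-deleted samples. Ptprc, the gene of CD45, was at 269 and 171 CPM in Mll4-deleted and 274 and 143 CPM in K-Ras tumours, so leukocyte transcripts were present after the depletion. The 8 red blood cell genes summed to 14.7 and 20.8 CPM against 31.9 and 7.16 CPM, with the K-Ras samples on both sides of the Mll4-deleted samples. Nearly all of that sum was Alas2, an enzyme of haem synthesis in red cell precursors, while Hba-a1, Hbb-b2, Hbb-bs and Hbb-bt were at 0 reads in every sample. The part of these cells in the complex I result was not tested. In tumour tissue, fewer cells of a type and less RNA per cell cannot be told apart.

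Depth was similar across samples, with 26683033 to 36677987 reads on genes, and each Nduf gene other than Ndufs5 had at least 57 reads in every sample. The share of reads not assigned to genes was higher in both K-Ras samples, as given with the processing. The floor of 3 reads corresponded to 0.083 to 0.114 CPM and covers counting error only. The targeted gene, Kmt2d, was at 367 and 317 CPM in Mll4-deleted tumours and 395 and 526 CPM in K-Ras tumours (log2 fold change -0.43, SE 0.21, edgeR adjusted p = 0.302). It was not called, and with GC and length offsets its log2 fold change was -0.09, so the loss of Mll4 is taken from the labels. Counts per gene do not resolve the removal of single exons. Sftpc, a surfactant gene that marks lung epithelium, was at 5746 to 10740 CPM.

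To compare genes with one another, mean CPM over the 4 samples was divided by transcript length. The longest transcript was used, among those paired with a RefSeq mRNA where the gene had any. It was 3479 bases in Ndufab1 and 3632 bases in Ndufaf4, so their values per kilobase depend on this choice. Core subunits had a median of 32.0 CPM per kilobase and accessory subunits 29.0, while Ndufaf genes had 5.99, from 2.73 in Ndufaf4 to 8.09 in Ndufaf7. The lowest core subunit, Ndufv2, was at 22.0 CPM per kilobase, above every Ndufaf gene. Among accessory subunits the highest was Ndufa6 at 78.6 CPM per kilobase, followed by Ndufb10 at 66.7, Ndufa1 at 62.9, Ndufa7 at 62.5 and Ndufb9 at 61.5. Only Ndufs5, Ndufab1 and Ndufb4 among the subunits, at 1.04, 3.13 and 7.87 CPM per kilobase, lay below Ndufaf7. Pseudogene copies match part of each of these transcripts, as described below.

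**Figure D3:**
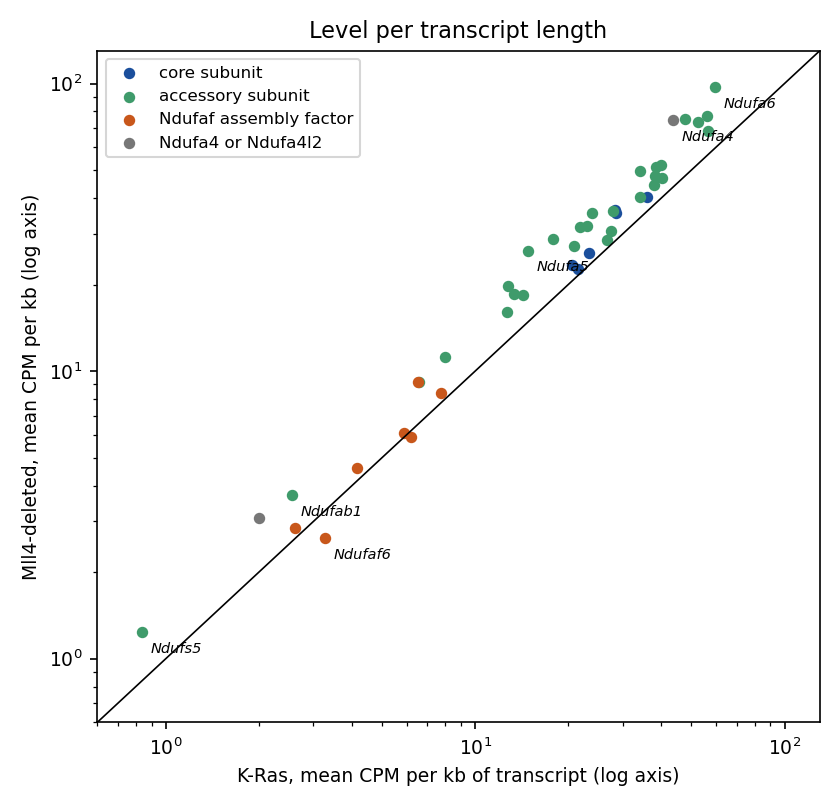
Mean CPM per kilobase of transcript in K-Ras (horizontal) and Mll4-deleted tumours (vertical), both axes logarithmic, with the line of equal level and 1 point per Nduf gene reported individually. Ndufaf genes sit between 2.73 and 8.09 CPM per kilobase over all samples, below nearly all subunits, and the subunits lie above the line.

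Copies and overlapping genes touch part of these counts. Processed pseudogenes with stretches at least 95% identical over 50 or more bases were found for 8 subunit transcripts, and they covered 75.7% of Ndufs3, 61.3% of Ndufs6, 60.8% of Ndufs5, 50% of Ndufb11, 40.2% of Ndufb4, 37% of Ndufb3, 36.2% of Ndufa12 and 13.5% of Ndufab1. Reads aligned to more than 1 place were not assigned to genes, so these counts are uncertain. The copy BC002163 of Ndufs5 had 126 reads in K-Ras replicate 1 and 11 to 22 in the other samples. Exons of 14 subunit genes overlap those of another coding gene, for example Ndufb5 with Mrpl47, and the strand setting of the counting is not given in the sources used here. The 17 subunits with neither feature had a median log2 fold change of 0.36, 17 of 17 positive and 15 of 17 higher in both Mll4-deleted samples. Over all genes tested, 48.8% were positive and 29.9% were higher in both.

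Transcript length was compared with the difference, since core transcripts are longer (median 1623 bases) than accessory ones (732 bases). The 18 shorter subunits had a median log2 fold change of 0.39 and the 18 longer ones 0.39. Across the 36 subunits, which share the same libraries, length and fold change had a Spearman correlation of -0.201, and across 15866 genes one of -0.072. Transcripts of up to 1 kilobase had a median of 0.10 over 1271 genes and of 0.39 over 22 subunits. With offsets for GC content and length, the medians were 0.42 for accessory subunits, 0.19 for core subunits and 0.02 for Ndufaf genes, against 0.03 over all genes tested. The order of the 3 roles was the same. With these offsets, 35 of 36 subunits were positive, against 52.7% of all genes.

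**Figure D4:**
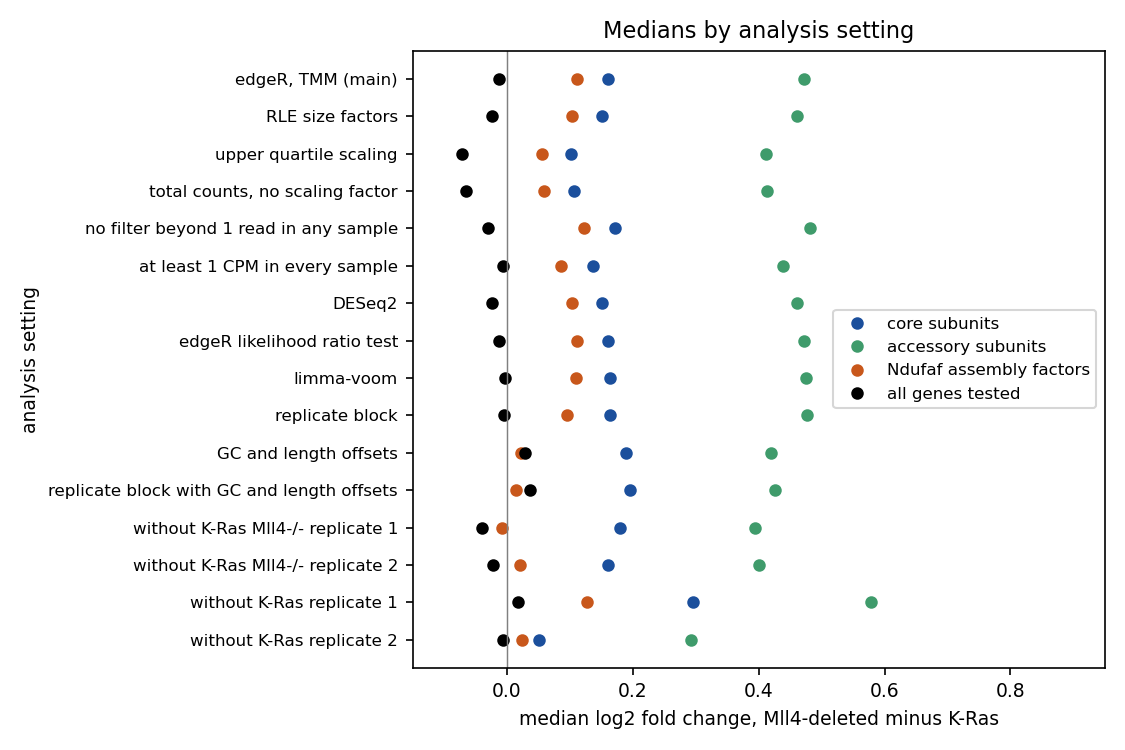
Median log2 fold change (horizontal axis) of core subunits, accessory subunits, Ndufaf genes and all genes tested under each analysis setting. Accessory subunits lie to the right of core subunits under each setting, from 0.29 to 0.58, and Ndufaf genes lie closest to 0 of the 3 roles.

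Ndufa4 and Ndufa4l2 were both higher. Ndufa4 was at 41.2 and 49.6 CPM in Mll4-deleted tumours and 25.5 and 27.7 CPM in K-Ras tumours, a log2 difference of 0.77 (SE 0.16, edgeR adjusted p = 0.153), and DESeq2 called it (adjusted p = 0.0208). This difference was within the range of the largest accessory subunits. Ndufa4l2, a relative known to be induced under low oxygen, was at 3.24 and 2.54 CPM against 2.16 and 1.58 CPM (log2 fold change 0.63, SE 0.36, edgeR adjusted p = 0.357). Neither gene's groups overlapped.

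Assembly factors with other names were taken from a list of 12 measured genes. Their median log2 fold change was 0.16, and that of the 7 core subunits was also 0.16. Of the 12, 5 were higher and 3 lower in both Mll4-deleted samples, against 29.9% and 28.5% of all genes. Their directions were thus mixed, as were those of the Ndufaf genes. Timmdc1, a membrane-arm assembly factor, was at 17.5 and 14.5 CPM in Mll4-deleted and 9.12 and 13.4 CPM in K-Ras tumours (log2 fold change 0.50, SE 0.26). Tmem126a had a log2 fold change of 0.37 (SE 0.21). Nubpl, which supplies iron-sulphur clusters to complex I, had one of -0.31 (SE 0.28). Sfxn4, a mitochondrial membrane protein needed for complex I assembly, was at 1.71 and 2.67 CPM against 4.45 and 4.15 CPM (log2 fold change -0.97, SE 0.35, edgeR adjusted p = 0.217). It was the only gene of the list with an unadjusted edgeR p under 0.05, against 21.8% of all genes in either direction. None of the 12 was called. Ndufaf8, listed under the older symbol 1810043H04Rik, was not counted among the Nduf genes.

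For comparison, 39 subunit genes of complexes II to V had a median log2 fold change of 0.48. Of these 39, 35 were higher in both Mll4-deleted samples, against 29.9% of all genes tested. At an unadjusted edgeR p under 0.05, 23 were higher, against 11.4% of all genes. The 77 mitochondrial ribosomal protein genes had a median of 0.31, with 54 higher in both, and 78 tested cytosolic ribosomal protein genes one of 0.59, with 72 higher in both. The 36 complex I subunits, of which 29 were higher in both, had a median of 0.39, between the medians of these lists. No difference from them was tested.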

How the data were processed

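Raw read counts per gene symbol were deposited by the authors, with 1 table for each of 4 samples. The submitters' processing notes name CASAVA 1.4, STAR, HTSeq and the mm9 genome. The 5 closing tally lines, which held 60.1% to 65.6% of all reads tallied, were left out. The main test was edgeR 4.0.16 (R 4.3.3) over all samples, with the default count filter (minimum count 10), TMM scaling and the robust quasi-likelihood test, and a call at an adjusted p under 0.05. Each SE was derived from the log2 fold change and the F statistic. All 45 Nduf genes passed the filter. Alternatives were other scalings and filters, DESeq2 1.42.0, the likelihood ratio test, limma 3.58.1 (voom), a replicate block, GC and length offsets (mgcv 1.9.3) and leaving out samples. The code was tested on simulated data. Lengths came from GENCODE M21 (GRCm38), with a length for 15866 of 16001 tested genes. Since the counts refer to mm9, no gene coordinates are given beyond the RefSeq promoters. Copies were sought with blastn 2.17.0. Members and lists were chosen with earlier results of these data known. Named genes were the core subunits, of which 1 is included in counts and medians but otherwise not reported here, the 6 accessory subunits with the largest and the 4 with the smallest log2 fold change, all Ndufaf genes, Ndufa4 and Ndufa4l2, Kmt2d, and the 2 highest and 2 lowest of the other assembly factors and of the regulators. Symbols were matched through RefSeq synonyms. Promoter motifs were consensus patterns, not taken from a motif database file.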

Additional observations from a re-analysis of the deposited data

How the results depend on the processing

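Against 6 called genes, the unfiltered table gave 44, DESeq2 1601, the edgeR likelihood ratio test 1503 and limma-voom 0. The count was 217 with the replicate block and 419 with the replicate block and GC and length offsets, and 0 to 528 with single samples left out (528 without K-Ras replicate 1). The cause was not tested. Against 0 called Nduf genes, DESeq2 gave 4 and the edgeR likelihood ratio test 3, and the other alternatives gave 0, the replicate block included. Replicate numbers are shared between groups in the labels, which do not say what a number marks. Deviations from the group means correlated at 0.20 across genes between same-numbered samples, and at 0.073 across the Nduf genes. With the replicate block, the median log2 fold change was 0.39 for subunits and 0.095 for Ndufaf genes.

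With single samples left out, where the lone sample of a group is assumed to vary like the other group, the median log2 fold change of the subunits was 0.28 to 0.54 and that of the Ndufaf genes -0.008 to 0.13, reversing without Mll4-deleted replicate 1. The difference between them was 0.26 to 0.41. With GC and length offsets the Ndufaf median was 0.023 and the difference 0.351. With the replicate block and the offsets they were 0.015 and 0.366.

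Of 35 named genes, signs reversed under the offsets for Ndufb3 (-0.105), Ndufaf1 (-0.061) and Nrf1 (0.071), and with the replicate block added these were -0.105, -0.06 and 0.069. Nrf1 was at 0.001 without a count filter. With single samples left out, Ndufv2 ranged from -0.008 to 0.41, Ndufa11 from -0.014 to 0.32, Ndufaf4 from -0.028 to 0.267, Ndufaf5 from -0.062 to 0.333, Ndufaf7 from -0.144 to 0.327, Nrf1 from -0.069 to 0.048 and Gabpb1 from -0.255 to 0.013. Of the Nduf genes, Ndufs5 had the fewest reads, which limits its estimate. A pseudogene copy matches 60.8% of its transcript, and reads aligned to more than 1 place were not assigned. The part of the copy in the low count was not tested.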

Other observations

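Of 12 genes that encode regulators of mitochondrial gene expression, both Mll4-deleted samples exceeded both K-Ras samples for 7, against 29.9% of all genes. They lay below both K-Ras samples for 0, against 28.5%. The median log2 fold change of the 12 was 0.27 (-0.01 over all genes tested), and none of them was called (edgeR adjusted p under 0.05). Pprc1, a relative of the PGC-1 coactivators, was the only one with an unadjusted edgeR p under 0.05, against 21.8% of all genes in either direction. It was at 44.3 and 46.0 CPM in Mll4-deleted tumours and 35.2 and 34.8 CPM in K-Ras tumours (log2 fold change 0.37, SE 0.12). It was named after its values were seen. Ppargc1b, a coactivator of mitochondrial biogenesis, was at 10.2 and 6.36 CPM against 6.31 and 4.32 CPM (log2 fold change 0.64, SE 0.36). Tfb1m, which encodes a methyltransferase of mitochondrial ribosomal RNA, was at 5.29 and 5.71 CPM against 3.30 and 4.10 CPM (log2 fold change 0.57, SE 0.27). Nrf1, whose motif was searched in the Nduf promoters, was at 48.1 and 51.7 CPM against 49.6 and 50.9 CPM (log2 fold change -0.009, SE 0.12), so its groups overlapped. Gabpb1, a subunit of an ETS-family factor, was at 44.0 and 46.6 CPM against 53.5 and 45.0 CPM (log2 fold change -0.12, SE 0.15).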
